A study of Homo sapiens with 4 samples.

Results

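MicroRNAs encoded inside genes of lipid metabolism were examined in exosomes, small vesicles shed by cells into the culture medium. They were miR-1908, hosted by the desaturase gene FADS1, and miR-33, hosted by the SREBF genes. Members were chosen by name, as any entry called miR-1908, miR-33a or miR-33b with either arm or none, and miR-1908 drew attention because its change in these same data was already known to be among the largest decreases. Of 1308 miRNA entries in all, 2 met the rule, miR-1908, named without an arm, and miR-33a-3p. The 5p arm of miR-33a and both arms of miR-33b were not analysed here. The vesicles were collected after 2 days from Hep3B, a hepatoma line of human origin that lacks p53, grown without exosomes from other sources. For 2 of the arrays the medium held 10 µM camptothecin, which blocks topoisomerase I. For the other 2 it held none per the labels, although the headers of the authors' ratios call that comparator DMSO. Whether replicate arrays stem from independent cultures is not labelled, so their spread may be technical.

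FADS1 encodes a desaturase that makes long-chain polyunsaturated fatty acids. SREBF1 and SREBF2 encode the transcription factors that switch on fatty acid and cholesterol synthesis in the liver. In textbook accounts the 5p strand of miR-33 is made together with its host transcript and lowers ABCA1, the transporter that exports cholesterol from the cell, while the 3p strand is cut from the other side of the same hairpin. miR-1908 has been reported to lower apolipoprotein E in melanoma cells.

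The hairpins below show where each measured strand lies. Both are given 5′ to 3′ from RefSeq (GRCh38.p14), with the mature strand in capitals. The miR-1908 hairpin lies at chr11:61815161-61815240 on the minus strand, inside the bounds of FADS1 and on the same strand as it. The miR-33a hairpin lies at chr22:41900944-41901012 on the plus strand, inside the bounds of SREBF2 and again on its strand. For miR-1908 the strand in capitals is the 5p arm, which carried the name without an arm in earlier miRNA catalogues, and the array's own table does not say which arm its probe reads.
MIR1908: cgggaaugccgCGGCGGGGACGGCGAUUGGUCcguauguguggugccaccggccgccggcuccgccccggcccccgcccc
MIR33A: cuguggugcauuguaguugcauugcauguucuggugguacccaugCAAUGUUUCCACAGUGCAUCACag

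The seeds, bases 2 to 8 of a mature miRNA and the main part that pairs with targets, are in capitals in the next lines. They show that the measured strand miR-33a-3p has a different seed from miR-33a-5p, and that miR-1908-5p shares its seed with miR-663a.
miR-1908-5p: cGGCGGGGacggcgauugguc
miR-663a: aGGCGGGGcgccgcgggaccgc
miR-33a-3p: cAAUGUUUccacagugcaucac
miR-33a-5p: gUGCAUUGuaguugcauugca
Among 2370 mature names in RefSeq, 3 others had the seed of miR-1908-5p (miR-663a, miR-6787-5p and miR-10396b-5p), and miR-663a was the one with an entry analysed here. Outside the seed miR-1908-5p and miR-663a matched at 0 further positions, since 7 of 21 aligned positions were the same and these form 1 run of 7 bases. The seed of miR-33a-3p was shared by 0 other names, and that of miR-33a-5p by miR-33b-5p alone.

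miR-1908 had an intensity of 462 and 450 arbitrary units on the camptothecin arrays, against 876 and 734 on the untreated arrays. Both treated arrays lay below both untreated arrays, and the gap between the groups was wider than the gap between the untreated arrays, which was the larger of the within-group gaps. The means were 456 ± 8.69 after camptothecin and 805 ± 100 without (SD, n = 2 each), a 1.76-fold lower level (log2 fold change -0.81 ± 0.090, limma standard error). The authors' deposited table gives the ratio of each treated to each control array, and for miR-1908 these 4 log2 ratios were -0.92, -0.67, -0.96 and -0.71. The entry ranked 6 of 1308 from the lowest fold change upwards. As this decrease is why miR-1908 was chosen, it is given as a description with no test.

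The spread was uneven between the groups. On the log2 scale the untreated arrays differed by 0.26 for miR-1908, where the median entry differed by 0.050 in that group. The treated arrays differed by 0.039, where the median entry differed by 0.065. Replicate arrays of a group hold identical sorted values, so these gaps and the SDs reflect differences in rank only. They may understate the spread between replicates. Counted from the brightest of 1308 entries, miR-1908 stood at the top 10.9% and 11.3% on the camptothecin arrays, against the top 5.43% and 7.11% on the untreated arrays. These ranks do not depend on how an array is scaled, and they too did not overlap. A rank describes the brightness of a probe and not abundance, since probes bind with different strength. The same mass of small RNA was labelled for each array, so an intensity reflects a share of that RNA, and less of a miRNA and more of other small RNA cannot be told apart.

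**Figure D1:**
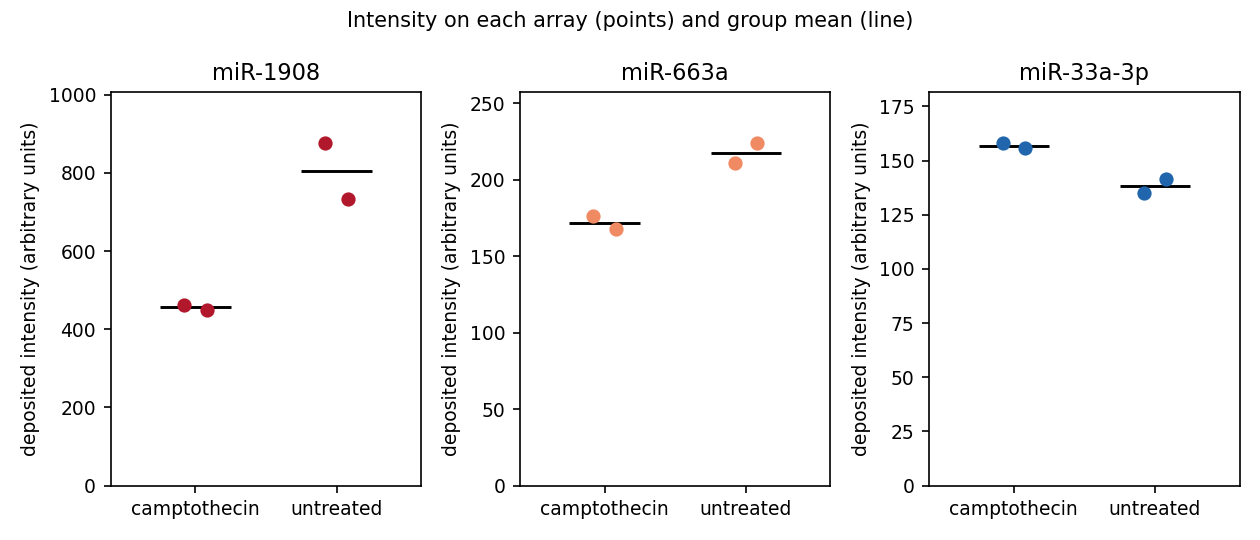
Deposited intensity (arbitrary units, axis from 0) of miR-1908, of miR-663a, which has the same seed, and of miR-33a-3p, with 1 point per array and a line at the group mean. miR-1908 and miR-663a are lower on both camptothecin arrays, while miR-33a-3p is higher on both (means 157 and 138).

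miR-33a-3p, the SREBF2-hosted strand, had an intensity of 158 and 156 on the camptothecin arrays, against 135 and 141 on the untreated arrays. The groups did not overlap, but the values were dim and the difference small. Its means were 157 ± 1.66 after camptothecin and 138 ± 4.53 without (SD, n = 2 each), a log2 fold change of 0.18 ± 0.045 (limma standard error). The median over all entries was 0.11. Its mean level lay at the 37.3 percentile of entries, in a range where no background reading was used and the height over background is unknown. Counted from the brightest, it stood at the top 58.9% and 61.5% on the camptothecin arrays, against the top 67.7% and 62.3% on the untreated arrays. The ranks of camptothecin replicate 2 and untreated replicate 2 were 11 places apart, which is less than the 33 places between the treated arrays.

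For the whole table of 1308 entries, limma called 606 at a Benjamini-Hochberg adjusted p under 0.05 (46.3%), 459 higher (35.1%) and 147 lower (11.2%) after camptothecin. With 1 array left out the total was 1 to 71. Both treated arrays lay below both untreated arrays for 19.3% of entries and above them for 59.4%. As deposited, calls differed with brightness. With entries cut by level into 4 bins of 327, the bin of miR-33a-3p (the second from the bottom) had 39.1% called higher and 0 lower, and its median log2 fold change was 0.13. The brightest bin, which holds miR-1908, had 18.7% called higher and 39.4% lower, and its median was -0.12. This pattern depended on the scaling: with all 4 arrays quantile normalized jointly, the bin of miR-33a-3p had 7 higher and 7 lower calls (median -0.0088), and the brightest bin had 61 and 54 (median -0.047). No p-value is given for the members, because the choice was made with this contrast in view. An exact two-sided permutation test of 2 arrays against 2 cannot go below p = 0.333.

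**Figure D2:**
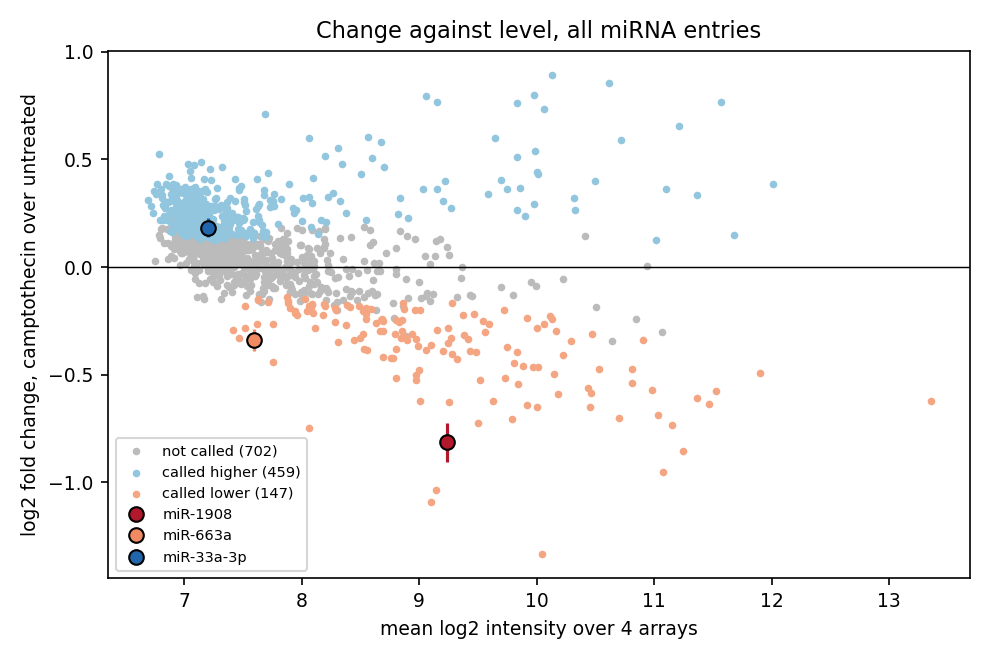
Log2 fold change of camptothecin over untreated against mean log2 intensity for 1308 entries, coloured by call, with the standard error drawn for miR-1908, miR-663a and miR-33a-3p. miR-33a-3p (0.18) lies within the cloud of dim entries shifted upwards, and miR-1908 (-0.81) lies near the lower edge of the bright entries.

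The differences in miR-33a-3p and miR-1908 both varied in size with the scaling, and that in miR-1908 did not change sign. With all 4 arrays quantile normalized together, miR-1908 averaged -0.66 ± 0.10 and miR-33a-3p 0.049 ± 0.045 (log2 fold change, limma standard error). With each array centred on its median the values were -0.92 for miR-1908 and 0.077 for miR-33a-3p, and after normexp background correction they were -0.81 and 0.13. With the 75th percentile taken over entries above the median level they were -0.69 and 0.31. Under joint quantile normalization 6.88% of all entries were called higher and 6.04% lower.

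The deposited values also keep a trace of how they were scaled. Values on the treated arrays were whole multiples of 0.585 for 99.3% of entries and those on the untreated arrays whole multiples of 0.427 for 97.7%, within 0.01 units. If 1 step stands for 0.5 of a scanner unit, as a mean of 2 whole values would give, the factors per group were 1.17 for the treated and 0.854 for the untreated arrays. Divided by them, miR-33a-3p read 135 and 133 on the camptothecin arrays, against 158 and 165.5 on the untreated arrays, so its order turned round, with a log2 fold change of -0.27. miR-1908 read 395 and 384.5 on the camptothecin arrays, against 1025 and 859 on the untreated arrays, with a log2 fold change of -1.27. At this scale the median entry stood at -0.34, since the untreated arrays were brighter as a whole. miR-33a-3p was thus 0.071 above the median entry in both readings.

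**Figure D3:**
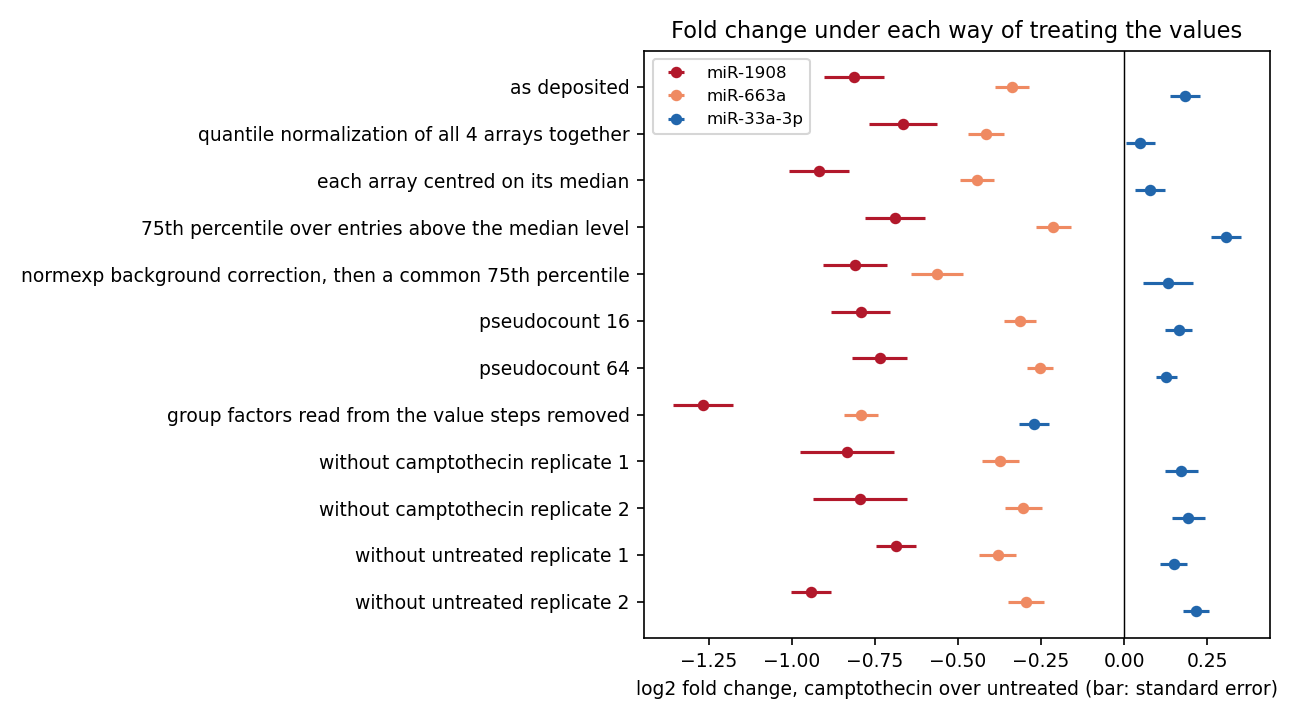
Log2 fold change of camptothecin over untreated (bar: limma standard error) for miR-1908, miR-663a and miR-33a-3p under each way of treating the values. miR-1908 stays between -1.27 and -0.66 and miR-663a below 0, while miR-33a-3p crosses 0 when the group factors are removed (-0.27).

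miR-663a, with the seed of miR-1908-5p on a different backbone, was lower as well. It read 176 and 168 on the camptothecin arrays, against 211 and 224 on the untreated arrays, with no overlap. Its means were 172 ± 5.79 and 217.5 ± 9.06 in the same order of groups (SD, n = 2 each). The log2 fold change was -0.34 ± 0.052 (limma standard error), and -0.41 under joint quantile normalization. This fold change was known when the seed comparison was planned, so it is no independent support and no p-value is given for it.

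The run GGCGGGG that forms the seed of miR-1908-5p was then looked for anywhere in the mature strand of the 1106 entries with a RefSeq sequence, miR-1908 read as its 5p arm. It was present in 7 of them (0.633%), which are printed here with the run in capitals because all 7 were lower after camptothecin. The search was planned after fold changes were known, and the 7 include miR-1908, chosen for its decrease, and miR-663a. Their count is a description with no test and no independent support.
miR-1908-5p: cGGCGGGGacggcgauugguc
miR-663a: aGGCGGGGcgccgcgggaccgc
miR-1228-5p: gugGGCGGGGgcaggugugug
miR-1237-5p: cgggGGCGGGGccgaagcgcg
miR-4466: gggugcgggccGGCGGGG
miR-6090: ggggagcgaggGGCGGGGc
miR-6089: ggaggccgggguggGGCGGGGcgg
The run starts at base 2 in miR-1908-5p and miR-663a, where it is the seed. It starts at base 4 or 5 in miR-1228-5p and miR-1237-5p, where it overlaps the seed only in part. In the other 3 it starts at base 12 or 15, outside the seed. In all 7 both treated arrays lay below both untreated arrays (background 19.3%). The 6 other than miR-1908 were called lower as deposited (background 11.2%). For these 6 the log2 fold changes ran from -0.70 to -0.28, with a median of -0.52. These backgrounds cover all entries, whereas all 7 have at least 76.2% G and C and 5 of them lie in the brightest bin. Of the 66 entries with a sequence that are at least as rich in G and C as miR-1908-5p, 37 were called lower as deposited. In the brightest bin 31 of 36 such entries were called lower. Both counts include entries that hold the run, miR-1908 among them. A decrease beyond that of equally rich and bright entries was not tested.

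miR-1237-5p, whose hairpin lies within the kinase gene RPS6KA4, had 704 and 684 on the camptothecin arrays, against 1124 and 1136 on the untreated arrays. miR-1228-5p, whose hairpin lies within LRP1, a receptor gene for lipoproteins, had 997 and 894 on the camptothecin arrays, against 1397 and 1447 on the untreated arrays. Both were called lower with joint quantile normalization too, as were miR-663a and miR-4466, whereas miR-6089 and miR-6090 were not. miR-4466 is the dimmest of the set, at 166 ± 5.79 after camptothecin and 202 ± 0.906 without (SD, n = 2 each). miR-6090 read 1911 and 1436 on the camptothecin arrays, and 2460 on each untreated array. The sorted values of replicate arrays are identical, so equal numbers there reflect an equal rank.

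Base composition moved with the fold change across the table. miR-1908-5p has 76.2% G and C, miR-33a-3p has 45.5%, and the median of 1106 entries was 54.5%. Of the 66 entries at least as rich in G and C as miR-1908-5p, miR-1908 included, 37 were called lower and 4 higher. Their median log2 fold change was -0.24. Of the 243 entries with 40% to under 50%, among them miR-33a-3p, 5 were called lower and 110 higher, and the median was 0.16. Over all 1106 entries the median was 0.12. Spearman's rho across entries, which share arrays and are not independent, was -0.366 between base composition and fold change, and 0.392 between base composition and level.

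Brightness and base composition overlap, so the brightest 327 entries, 272 of them with a sequence, were also looked at alone. There, 36 entries, miR-1908 included, were at least as rich in G and C as miR-1908-5p. Of these, 31 were called lower and 1 higher, and their median log2 fold change was -0.39. Of the 236 less rich entries, 77 were called lower and 52 higher, and their median was -0.074. With joint quantile normalization these counts were 20 lower and 1 higher among the 36, and 23 lower and 51 higher among the 236. The 3 brightest of the entries as rich as miR-1908-5p were miR-4763-5p, called higher (0.15), and miR-5787 (-0.95) and miR-6090 (-0.57), called lower. The part that base composition plays in the value of miR-1908 was not tested.

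**Figure D4:**
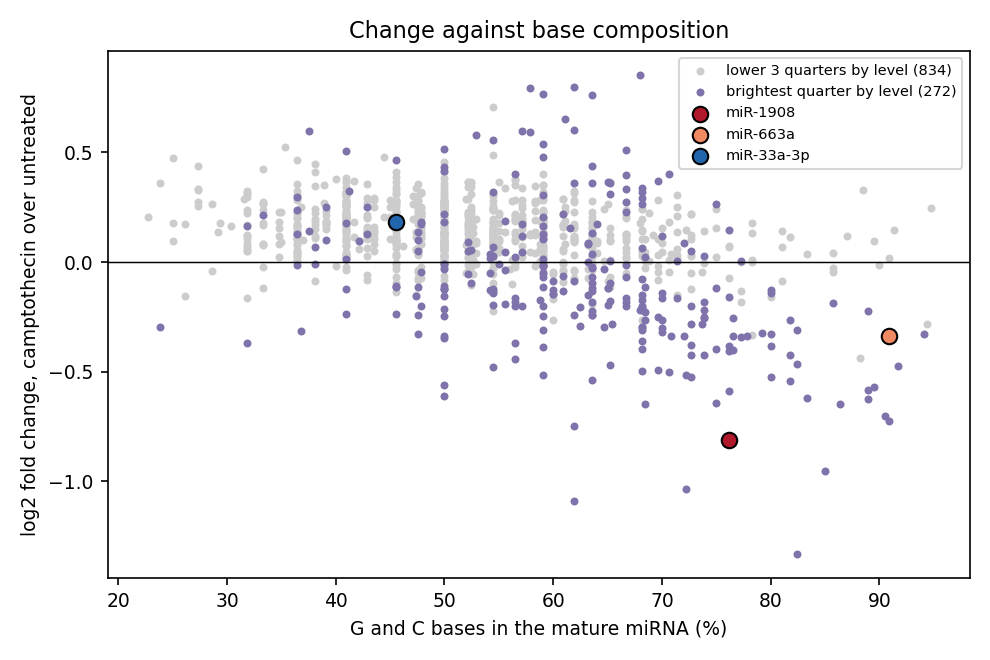
Log2 fold change of camptothecin over untreated against the percentage of G and C in the mature miRNA for 1106 entries, with entries of the brightest 327 in purple. Bright entries at the right, among them miR-1908 at 76.2%, lie mostly below 0, and miR-33a-3p at 45.5% lies among entries mostly above 0.

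The entries most like each member were found by distance over the log2 intensities of the 4 arrays. For miR-1908 the nearest were miR-6126 (mean 396 after camptothecin and 811 without), miR-1273g-5p (491 and 760), miR-204-3p (376 and 801), miR-4707-3p (551 and 740) and miR-4463 (540 and 714), in the same order of groups. On the deviations from each entry's own mean, among 209 entries within 1 log2 unit of its level (miR-1908 included), the nearest were miR-1237-5p, miR-762, miR-6126, miR-3665 and miR-6085, with log2 fold changes from -1.03 to -0.62. miR-1237-5p, which also holds GGCGGGG, was the closest of these at a distance of 0.221, and the others named do not hold it. As this distance uses the same arrays as the fold change, the nearest entries share its direction by construction. For miR-33a-3p the nearest were miR-3650, miR-3148, miR-30c-5p, miR-378a-3p and miR-557, all within a distance of 0.0473 and with log2 fold changes of 0.14 to 0.19.

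Other miRNAs of lipid metabolism were read from lists made with earlier results of these data known. Of 24 miRNAs reported to act on ABCA1 or on the HDL receptor gene SCARB1, 12 were analysed, and 7 were called higher and 0 lower as deposited (background 35.1% and 11.2%). Their median log2 fold change was 0.19, and all 12 were below the median level. There the dimmest bin of entries had 61.5% called higher and the next bin 39.1%, both with 0 lower. A share of calls beyond that of equally dim entries was not tested. The largest calls were miR-145-5p (0.36), miR-128 (0.30), miR-613 (0.25) and miR-758-3p (0.25), and the 2 brightest were miR-19b-3p (0.16), called higher, and miR-223-3p (0.11), not called. With joint quantile normalization only miR-145-5p of the 12 was called higher (0.22), with 0 lower and a list median of 0.040.

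Of 20 miRNAs reported to act on lipid synthesis, lipoproteins or their regulators, 12 were analysed. As deposited 9 were called higher and 0 lower (background 35.1% and 11.2%). Of the 12, 10 were below the median level, where the bins had 61.5% and 39.1% called higher, both with 0 lower. The list median was 0.21 on the log2 scale. The largest calls were miR-206 (0.46), reported to act on the sterol receptor LXR, miR-122-5p (0.39), which in liver sustains cholesterol and fatty acid synthesis, miR-34a-5p (0.28) and miR-24-3p (0.26). miR-206 and miR-370 (-0.041, not called) were the brightest. miR-206 read 489 on average after camptothecin and 354 without, and it alone of the 12 was called under joint quantile normalization (0.55), where the list median was 0.035. Of the 9 listed miRNAs from introns of other metabolic genes, 5 were analysed, 3 of them below the median level. As deposited 4 were called higher and 0 lower (background 35.1% and 11.2%). These were miR-483-3p from IGF2 (0.77), miR-107 from PANK1 (0.16), miR-335-3p from MEST (0.16) and miR-378a-3p from PPARGC1B (0.14), and miR-483-5p (-0.057) was not called. The calls of miR-107 and miR-378a-3p were already counted among the 9 of the list before. miR-483-3p was the one of the 5 called under joint quantile normalization (0.89). miR-611 and miR-6777, listed as lying in or near the host genes, were not analysed here.

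The hepatocyte markers miR-122-5p, miR-192-5p and miR-194-5p were dim, between the 3.75 and 36.3 percentiles of level. All 3 were called higher as deposited (background 35.1%) and 0 under joint quantile normalization. As deposited, 61.5% of all entries in the dimmest bin and 39.1% in the next were called higher. Of 3 blood cell miRNAs that can come with serum, 1 was called higher as deposited (background 35.1%) and 0 under joint quantile normalization. Of 5 miRNAs of fibroblasts and muscle, 3 were called higher as deposited (background 35.1%). The same 3, miR-206, miR-1 and miR-145-5p, were called under joint quantile normalization (background 6.88%). With that scaling miR-199a-5p (-0.031) and miR-143-3p (-0.10) were below 0 and not called. miR-206 and miR-1 lie in the brightest bin, where 61 of 327 entries were called higher under it. miR-145-5p lies in the second bin from the bottom, where 7 were. miR-122-5p, miR-192-5p, miR-206, miR-143-3p, miR-145-5p and miR-223-3p also stand on the lists of lipid miRNAs above, so the lists overlap. Levels of the blood cell miRNAs lay at the 46.2 to 76.8 percentiles, and those of the fibroblast and muscle miRNAs at the 28.9 to 86.9 percentiles. The part of such other sources in the values of miR-1908 and miR-33a-3p was not tested.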

How the data were processed

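Small RNA of exosomes from Hep3B cells was measured on 4 one-colour arrays, 2 per group. Per the labels' protocols, exosomes were isolated with a kit, and the labelled material was amplified from small RNA and carried Cy5. The deposited values are intensities on a linear scale, 1 per probe. For the scanner, background correction and normalization, the sources used here state nothing. The sorted values of replicate arrays are identical, as quantile normalization within groups would give, and all 4 share a 75th percentile of 250.15. Such a step narrows replicate spread and makes p-values too small. The authors' log2 ratios, per the file headers, equal the log2 differences of these intensities within 5e-10. Another 4 columns of values per array were not used. Depth has no meaning for arrays, and their number limits the precision.

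Log2 intensities of 1308 entries were compared between groups in R 4.3.3 with limma 3.58.1 (lmFit, then eBayes with the trend option), and two-sided p-values were adjusted after Benjamini and Hochberg. Alternatives were other scalings, a normexp correction (offset 50), pseudocounts of 16 and 64, filters on dim entries, other variance models, a replicate block and each array left out. The code was tested on simulated data. Same-numbered arrays did not deviate together (correlation of deviations -0.0717 over entries), so the number was not used as a pair. Sequences and names came from RefSeq (GRCh38.p14), and 1105 entries matched by exact name. miR-1908 was read as its 5p arm, and 202 entries had no sequence. Named miRNAs were the members, entries with a member's seed, the 5 nearest entries by distance, the 3 brightest entries as rich in G and C as miR-1908-5p, and of each list the 2 brightest and up to 4 called by size of change. miR-1228-5p, miR-4466 and miR-6089 were named after their values were seen, as were miR-199a-5p and miR-143-3p. Members, lists and alternatives were chosen with earlier results of these data known.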

Additional observations from a re-analysis of the deposited data

How the results depend on the processing

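The log2 fold change of miR-1908 was -0.66 under joint quantile normalization and -1.27 once the group factors were removed, a setting added after the data had been examined. It moved by less than the spread between replicates (pooled log2 SD 0.129) in the other scalings, with normexp correction and with pseudocounts. Filters, other variance models and the replicate block leave this fold change as it is by construction. With 1 array left out it ran from -0.94 (without untreated replicate 2) to -0.69 (without untreated replicate 1). Such a shift cannot exceed the spread between replicates, so its size is no check. miR-33a-3p turned to -0.27 with the group factors removed, was 0.31 with the 75th percentile over entries above the median level and 0.15 to 0.22 with an array left out, and could not be fitted with entries at or above the median level or among the brightest 327. Calls over all entries numbered 606 (459 higher, 147 lower) as deposited, 169 (90 and 79) with joint quantile normalization, 330 (118 and 212) with median centring, 975 (892 and 83) with the 75th percentile over entries above the median level, 191 (85 of them lower) after normexp correction and 1177 (11 and 1166) with the group factors removed. It was 267 and 190 with fewer entries tested, and 1 to 71 with an array left out (71 and 44 for camptothecin replicates 1 and 2, and 1 for each untreated array). Beyond fewer entries or arrays, the cause was not tested. With the replicate number as a block, 550 entries were called, and the fold changes of miR-1908 (-0.81) and miR-33a-3p (0.18) are the same by construction.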
